A study of Arabidopsis thaliana with 33 samples.

Results

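The libraries compared came from hy5-2 hypocotyl explants cultured in high light and Col-0 hypocotyl explants cultured in low light, both harvested after 8 days on shoot induction medium (SIM). They were chosen by their labels alone and number 6 of the 33 libraries of the study, 3 per group. hy5-2 is a mutant allele of the transcription factor gene HY5, and Col-0 is the wild type. Seedlings of both genotypes had grown for 7 days in low light before their hypocotyls were cut. Explants then spent 4 days on callus induction medium (CIM, 0.1 mg/L kinetin and 0.5 mg/L of the auxin 2,4-D) and moved to SIM (0.15 mg/L of the auxin IAA and 0.5 mg/L of the cytokinin 2-iP) at 22 °C. Light was continuous, at 40 µmol per square metre per second for high light and 2 for low light. Genotype and light differed together, no hy5-2 culture in low light was analysed, and their parts in any difference therefore cannot be told apart in this comparison. Col-0 in high light after 8 days on SIM (3 libraries) is set beside the comparison for some of the genes and lists, and shares its libraries with the comparisons it enters. The mutant is represented by 1 allele.

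HY5 is a bZIP transcription factor that binds G-box and related promoter elements and promotes seedling development in light. In darkness and weak light the COP1 and SPA proteins mark it for degradation, and in brighter light it accumulates and activates genes of pigment synthesis and photosynthesis, together with its close relative HYH. In explant culture, CIM gives a root-like callus, and SIM, rich in cytokinin, lets that callus form shoot meristems. The comparison therefore asks how far explants that lack HY5 and receive high light differ from wild-type explants that have HY5 but little light.

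The 6 libraries held 8.02 to 12.48 M counted reads each, and the 3 Col-0 high-light libraries 7.98 to 9.72 M. Loci with no count numbered 11092, 9818 and 9948 in hy5-2 replicates 1, 2 and 3, against 10979 to 11598 in Col-0 in low light. The lower numbers of hy5-2 replicates 2 and 3 came without greater depth, at 9 and 10.06 M reads against 11.07 M in replicate 1. Their part in rises of genes with few counts was not tested. Levels are CPM, read counts scaled to a common library size, and are not corrected for gene length, so they are compared only within a gene or a fixed list. On the first principal component of the 9 SIM 8-day libraries, with 56.3% of the variance, the hy5-2 high-light libraries lay at -29.6 to -18.4 and the Col-0 high-light libraries at 51.5 to 63.2. The Col-0 low-light libraries lay at -37.2 to -29.4, beside those of hy5-2. The second component, with 14.1%, placed hy5-2 in high light at 26.6 to 27, Col-0 in high light at -7.76 to 4.26 and Col-0 in low light at -30.1 to -19.3.

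Of 20842 genes tested, 826 rose in hy5-2 in high light relative to Col-0 in low light (3.96%) and 598 fell (2.87%), at a Benjamini-Hochberg adjusted p under 0.05 in edgeR's quasi-likelihood test. The called genes together made up 6.83% of those tested. Most changes were modest, with a median log2 fold change of 0.65 among genes that rose and -0.56 among genes that fell, and 218 rose and 145 fell at least 2-fold (1.05% and 0.696%, together 1.74%). All 3 libraries of one group lay above all 3 of the other in 814 of the 826 and 579 of the 598, beside 12.5% and 11.1% of all genes tested. The counts depend on single libraries: without hy5-2 replicate 1 the genes that fell numbered 366. For the same 20842 genes, 23.5% were called between hy5-2 in high light and Col-0 in high light (10.1% higher and 13.4% lower in hy5-2). Between Col-0 in high light and Col-0 in low light, 27.6% were called (16% higher and 11.6% lower in high light), and both comparisons share libraries with this one. Genes on chromosome 5 within 1 Mb of HY5 were called in 20 of 485 cases (4.12%), against 6.9% elsewhere.

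The mutated gene itself was low in the mutant. HY5 (AT5G11260, chr5:3593380-3594992, minus strand, TAIR10) had 2.58, 3.49 and 1.86 CPM in hy5-2 in high light, against 18.5, 16.4 and 16.9 CPM in Col-0 in low light. Its log2 fold change was -2.71 ± 0.21 (SE, adjusted p = 1.24e-10), and it averaged 35.7 ± 5.76 CPM (SD, n = 3) in Col-0 in high light. HYH (AT3G17609), its relative, had 0.622, 0.328 and 0.294 CPM in hy5-2 in high light, against 3.75, 3.64 and 4.61 CPM in Col-0 in low light. HYH fell by 3.19 on the log2 scale (SE 0.41, adjusted p = 1.77e-06), and its groups did not overlap. At the start of culture, where both genotypes were in low light, HYH averaged 5.98 ± 1.39 CPM in hy5-2 and 4.50 ± 1.29 CPM in Col-0 (adjusted p = 0.536).

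**Figure D1:**
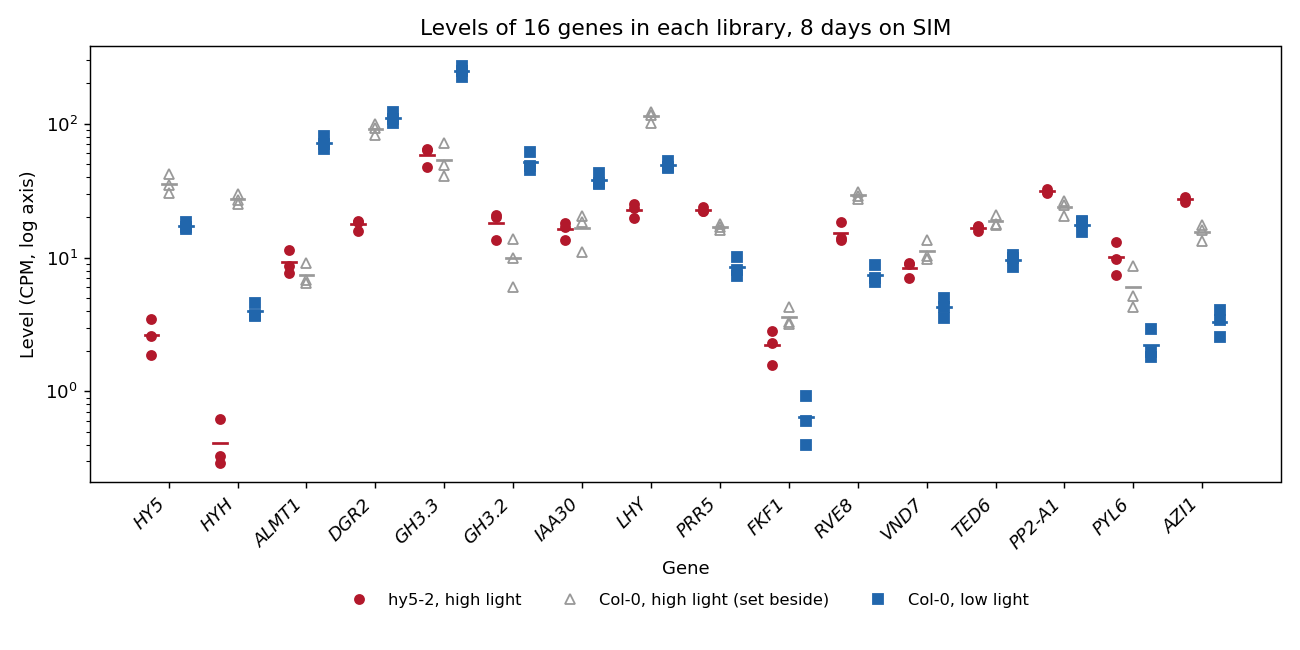
Level of 16 genes in each library after 8 days on SIM, in CPM on a log axis; red circles are hy5-2 in high light, open grey triangles Col-0 in high light, blue squares Col-0 in low light, and bars are means of 3. GH3.3 lies near Col-0 in high light in the mutant, at 47.2 to 65.0 CPM, while HY5 and HYH lie below both Col-0 groups.

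The light signalling list of 31 measured members, which includes HYH, held 2 that rose and 2 that fell. Its median log2 fold change was 0.07, beside 0.00 over all genes tested. For this and the lists below, the shares of all genes tested that rose and fell were 3.96% and 2.87%. The B-box gene BBX31 rose by 1.54 (SE 0.29, adjusted p = 0.000531), at 3.73, 2.95 and 3.04 CPM in hy5-2 in high light, against 1.09, 1.19 and 1.04 CPM in Col-0 in low light. Its close relative BBX30, which like it encodes a small B-box protein, had 1.87, 1.53 and 1.86 CPM in hy5-2 in high light, against 0.121, 0.316 and 0.807 CPM in Col-0 in low light (adjusted p = 0.00107). Both genes were clear of their Col-0 low-light range in every mutant library. SPA4, a partner of COP1, fell by 0.36 (adjusted p = 0.0257), a call that was lost without either of hy5-2 replicates 1 and 3 (adjusted p = 0.0822 and 0.105) or Col-0 low-light replicates 1 and 2 (adjusted p = 0.116 and 0.132).

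Flavonoid genes, textbook HY5 targets, had 2 that rose and 1 that fell of 24 measured members, with a median of 0.05. Their summed level was 1638 to 1770 CPM in hy5-2 in high light, 1485 to 1567 CPM in Col-0 in high light and 1425 to 1552 CPM in Col-0 in low light, so every mutant library lay above those of both Col-0 groups. Most of that sum came from PAL1, PAL2 and C4H, which act before the flavonoid branch and averaged 528, 282 and 818 CPM in hy5-2 in high light and 444, 207 and 785 CPM in Col-0 in low light. The branch enzymes CHS and FLS1 were low in both groups compared. CHS, which encodes the first enzyme of the flavonoid pathway, had 1.07, 0.655 and 0.294 CPM in hy5-2 in high light, against 1.21, 0.948 and 0.922 CPM in Col-0 in low light. The groups overlapped (log2 fold change -0.56 ± 0.79 SE, adjusted p = 0.813), while Col-0 in high light averaged 220 ± 14.2 CPM. FLS1, flavonol synthase, averaged 0.478 ± 0.343 CPM in hy5-2 in high light, 32.2 ± 3.43 CPM in Col-0 in high light and 0.701 ± 0.339 CPM in Col-0 in low light. F3H, flavanone hydroxylase, had 3 counts over the hy5-2 libraries and 22 over those of Col-0 in low light, a ratio of 0.132 with a 95% counting interval of 0.0253 to 0.439. Its call (adjusted p = 0.0189) was lost without hy5-2 replicate 2 or 3 (0.0891 and 0.0981) or Col-0 low-light replicate 1 or 2 (0.0555 and 0.224). Of the 2 that rose, PAL2, phenylalanine ammonia-lyase, rose by 0.45 (adjusted p = 0.00058). Its copy PAL1 rose by 0.25 (adjusted p = 0.0344), and lost the call without hy5-2 replicate 1 (0.233) or Col-0 low-light replicate 1 or 2 (0.177 and 0.0774). Of 7 sinapate ester genes, REF1, an aldehyde dehydrogenase of that route, and MYB4, a repressor of the phenylpropanoid route, rose by 0.72 and 0.64 (adjusted p = 0.000128 and 0.000383).

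Nuclear photosystem genes, which encode the light-harvesting and core proteins of the thylakoid, were not raised as a list. Of 50 measured members, 1 rose and 5 fell, with a median log2 fold change of -0.36. Against Col-0 in high light, 10.1% of all genes tested rose and 13.4% fell. There, 0 of these members rose and 48 fell, with a median of -2.98. Their summed level was 421, 530 and 601 CPM in hy5-2 in high light, 3626 to 3769 CPM in Col-0 in high light, and 556, 585 and 761 CPM in Col-0 in low light. The mutant and the Col-0 low-light sums overlapped, with 1 mutant library above the lowest 2 of Col-0 in low light. The 5 that fell were PSBQ2, LHCA2, LHCB1.3, PSAH1 and PSAH2, all light-harvesting or photosystem subunits. PSAH1, a photosystem I subunit, had 4.00, 4.69 and 2.35 CPM in hy5-2 in high light, against 9.08, 12.1 and 7.49 CPM in Col-0 in low light (log2 fold change -1.42 ± 0.32 SE, adjusted p = 0.00539). Its groups did not overlap, its reads may be shared with the near-identical PSAH2 and with an overlapping neighbour, and the call was lost without Col-0 low-light replicate 2 (adjusted p = 0.0671). The count of photosystem genes that fell was 1 without Col-0 low-light replicate 2 or without hy5-2 replicate 3, and 3 without hy5-2 replicate 1. It was at most 6 when 1 library was left out. The 6 libraries alone gave 9, DESeq2 8, a replicate block 7, no low-count filter 4 and a test against 1.5-fold 0. All mutant libraries lay below all those of Col-0 in low light for 14 members (11.1% of all genes tested), and above for 5 (12.5%).

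The photosystem gene that rose was FNR2. FNR2, a leaf ferredoxin-NADP reductase, had 12, 7.75 and 8.53 CPM in hy5-2 in high light, against 2.06, 3.32 and 2.42 CPM in Col-0 in low light. It rose by 1.82 on the log2 scale (SE 0.35, adjusted p = 0.00119) with no overlap, and averaged 54.8 ± 2.44 CPM in Col-0 in high light.

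Calvin cycle genes, which fix carbon in the chloroplast stroma, had a median of 0.53 over 18 measured members, but 2 rose and none fell. TKL1, transketolase, rose by 0.29 (SE 0.06, adjusted p = 0.00205), at 419, 397 and 387 CPM in hy5-2 in high light, against 320, 355 and 306 CPM in Col-0 in low light. RPE, ribulose-phosphate epimerase, rose by 0.38 (adjusted p = 0.016), and was lost without hy5-2 replicate 1 or 2 (0.0889 and 0.0563) or Col-0 low-light replicate 1 (0.0939). RBCS1A, a Rubisco small subunit gene with near-identical copies, averaged 17.5 ± 6.79 CPM in hy5-2 in high light, 517 ± 13.6 CPM in Col-0 in high light and 11.8 ± 3.19 CPM in Col-0 in low light. The mutant and low-light wild-type ranges of RBCS1A overlapped (adjusted p = 0.668).

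Of 26 chlorophyll synthesis genes, 0 rose and 3 fell, with a median of -0.06. CHLP, the reductase that makes the phytol tail, had 32.0, 25.9 and 22.1 CPM in hy5-2 in high light, against 45.7, 50.9 and 43.6 CPM in Col-0 in low light (log2 fold change -0.81 ± 0.18 SE, adjusted p = 0.00532). PORB, a light-dependent protochlorophyllide reductase, and CAO, which makes chlorophyll b, also fell, by 1.09 and 0.53. Their calls (adjusted p = 0.0221 and 0.0484) were lost without hy5-2 replicate 2 (0.05 and 0.135), hy5-2 replicate 3 (0.117 and 0.316) or Col-0 low-light replicate 2 (0.134 and 0.248), and that of CAO also without Col-0 low-light replicates 1 and 3 (0.0633 and 0.0724). HEMA1, which opens the pathway, averaged 20.7 ± 1.63 CPM in hy5-2 in high light, 49.6 ± 3.78 CPM in Col-0 in high light and 21.8 ± 1.52 CPM in Col-0 in low light (adjusted p = 0.813). PORC, a further protochlorophyllide reductase, averaged 4.45 ± 0.167 CPM in hy5-2 in high light and 4.83 ± 0.457 CPM in Col-0 in low light (adjusted p = 0.886).

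Of 18 photoprotection genes, 3 rose (PGR5, OHP1 and ZEP) and none fell, with a median of 0.08, and leaving out any 1 of the 6 libraries left 0 or 1 of the 3. PGR5 acts in cyclic electron flow and ZEP in the xanthophyll cycle. ELIP2, an early light-induced protein, had 2.58, 2.73 and 2.65 CPM in hy5-2 in high light, against 1.69, 2.05 and 1.96 CPM in Col-0 in low light, and did not pass (adjusted p = 0.33) although the groups did not overlap. PSBS, the sensor of non-photochemical quenching, averaged 0.682 ± 0.258 CPM in hy5-2 in high light, 126 ± 5.7 CPM in Col-0 in high light and 1.12 ± 0.233 CPM in Col-0 in low light (adjusted p = 0.757 between hy5-2 in high light and Col-0 in low light).

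Of 11 greening regulators, 1 rose. GLK2, a transcription factor that drives chloroplast development, had 3.82, 4.26 and 4.02 CPM in hy5-2 in high light, against 1.81, 1.66 and 1.73 CPM in Col-0 in low light. It rose by 1.22 (SE 0.22, adjusted p = 0.000262) with no overlap, and averaged 4.91 ± 0.165 CPM in Col-0 in high light. Its copy GLK1 had 3 counts in hy5-2 in high light and 1 in Col-0 in low light, too few to compare.

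**Figure D2:**
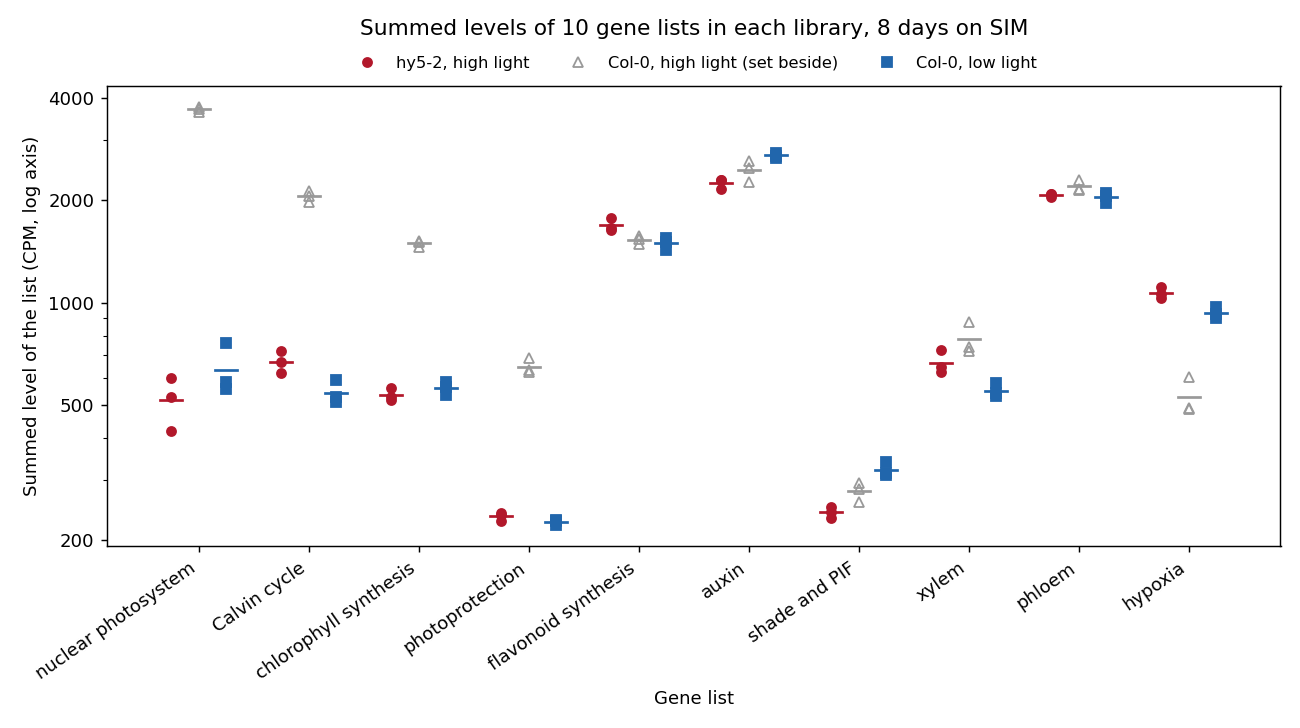
Summed level of 10 gene lists in each library after 8 days on SIM, in CPM on a log axis; symbols as for the single genes, and bars are means of 3. The nuclear photosystem sum is 421 to 601 CPM in hy5-2 in high light, 3626 to 3769 CPM in Col-0 in high light and 556 to 761 CPM in Col-0 in low light, and the hypoxia sum has the opposite order.

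The genes with the largest changes fell into several kinds. Of the 12 genes of largest fall, 6 had already passed as lower in the mutant before culture, when both genotypes were in low light (3.14% of all genes tested). These were HY5, QQS, PRR1, GulLO3, DGR2 and ALMT1. Before culture, HY5 had a log2 fold change of -1.73, DGR2 of -0.72 and ALMT1 of -0.36 (adjusted p = 8.07e-05, 0.000268 and 0.0442). QQS, a small orphan gene with a known effect on starch content, had 2 counts in all in hy5-2 in high light and 514 in Col-0 in low light, a ratio of 0.00376 (95% counting interval 0.000454 to 0.0137). Before culture it averaged 0.389 ± 0.0729 CPM in hy5-2 and 27.1 ± 2.19 CPM in Col-0. PRR1, pinoresinol reductase of lignan synthesis, had 1.60, 2.07 and 1.47 CPM in hy5-2 in high light, against 17.7, 17.4 and 16.5 CPM in Col-0 in low light (log2 fold change -3.33 ± 0.20 SE, adjusted p = 1.73e-13). Before culture its log2 fold change was -3.68 (adjusted p = 1.5e-18). GulLO3, a gulonolactone oxidase-like gene, lies on chromosome 5 within 1 Mb of HY5 (chr5:3703002-3704981). GulLO3 fell by 2.16 after 8 days on SIM (adjusted p = 7.09e-11) and had a log2 fold change of -2.85 before culture (adjusted p = 4.4e-11).

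Of these genes, ALMT1 and DGR2 differed in their place beside Col-0 in high light. ALMT1, which encodes a malate channel of roots, had 7.64, 11.4 and 8.63 CPM in hy5-2 in high light, against 80.5, 70.8 and 64.8 CPM in Col-0 in low light. Its log2 fold change was -2.98 ± 0.13 (SE, adjusted p = 1.72e-16), and Col-0 in high light averaged 7.46 ± 1.46 CPM. Against Col-0 in high light the mutant's difference was 0.28 (adjusted p = 0.28). DGR2, a cell wall protein gene, behaved otherwise, with 15.7, 18.9 and 18.4 CPM in hy5-2 in high light, 91.3 ± 8.45 CPM in Col-0 in high light, and 123, 108 and 100 CPM in Col-0 in low light (adjusted p = 2.81e-13 against Col-0 in low light). Every mutant library lay below every Col-0 library of either light for DGR2.

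The remaining genes of largest fall were BGLU24, a beta-glucosidase, ADS1, a fatty acid desaturase, XTH11, a xyloglucan-modifying enzyme, and the transcription factors bZIP70 and NAC019, with log2 fold changes of -2.37 to -1.74. Of these, ADS1 lost its call without hy5-2 replicate 1 or 2 (adjusted p = 0.0606 and 0.0512) or Col-0 low-light replicate 3 (0.0552), and NAC019 without hy5-2 replicate 1 (0.0725) or Col-0 low-light replicate 3 (0.106). bZIP70 overlaps a neighbour with more counts, and its reads may be shared.

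Among the genes that rose most, RPP4, a disease resistance gene in a cluster of close copies whose reads may be shared, had 10.4, 7.53 and 5.98 CPM in hy5-2 in high light, against 0.968, 0.474 and 0.807 CPM in Col-0 in low light. It rose by 3.48 (SE 0.37, adjusted p = 1.48e-07), and averaged 34.7 ± 5.68 CPM in Col-0 in high light. AZI1, a lipid transfer protein of systemic immunity, had 25.8, 28.5 and 27.3 CPM in hy5-2 in high light, against 3.39, 2.53 and 4.03 CPM in Col-0 in low light (log2 fold change 3.07 ± 0.37 SE, adjusted p = 4.32e-06). Neither gene's groups overlapped.

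TPPC, a trehalose phosphate phosphatase gene, had 9.33, 9.61 and 13.1 CPM in hy5-2 in high light, 1.53 ± 0.741 CPM in Col-0 in high light, and 2.90, 1.19 and 1.38 CPM in Col-0 in low light (adjusted p = 2.5e-06 against Col-0 in low light). OCT2, an organic cation transporter, averaged 8.10 ± 0.567 CPM in hy5-2 in high light, 1.96 ± 0.742 CPM in Col-0 in high light and 2.57 ± 0.838 CPM in Col-0 in low light (adjusted p = 4.47e-05 against Col-0 in low light). Both genes were higher in the mutant than in either Col-0 group. Before culture TPPC had 0 counts in both genotypes and OCT2 had 4 in hy5-2 and 2 in Col-0, too few to compare. PYL6, an abscisic acid receptor, had 13.2, 9.83 and 7.35 CPM in hy5-2 in high light, against 1.81, 2.92 and 1.96 CPM in Col-0 in low light (log2 fold change 2.13 ± 0.28 SE, adjusted p = 4.4e-06).

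TLL1, a lipase gene, had 61.8, 71.2 and 76.1 CPM in hy5-2 in high light, against 13.6, 21.8 and 26.5 CPM in Col-0 in low light (adjusted p = 9.9e-05). The remaining genes of largest rise were MLP328, a member of a family of close copies, G3Pp1, a glycerol-3-phosphate transporter, ACL, an esterase-like gene, IP5PII, an inositol phosphatase, and BGAL4, a beta-galactosidase, with log2 fold changes of 2.14 to 1.41. BGAL4 lost its call without hy5-2 replicate 3 (adjusted p = 0.0672) or Col-0 low-light replicate 1 or 2 (0.0514 and 0.101).

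Auxin genes held the most falls among the 27 lists described here. Of 33 measured members, 11 fell and 2 rose, where 2.87% and 3.96% of all genes tested did. The members' median log2 fold change was -0.21, beside 0.00 over all genes tested. Their summed level was 2154 to 2295 CPM in hy5-2 in high light, 2266 to 2612 CPM in Col-0 in high light and 2661 to 2757 CPM in Col-0 in low light, so the mutant's libraries lay below all those of Col-0 in low light. Auxin acts through degradation of AUX/IAA repressors, whose own genes and the GH3 genes, which conjugate auxin to amino acids, are known auxin-induced readouts.

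GH3.3 (AT2G23170) had 47.2, 65.0 and 63.9 CPM in hy5-2 in high light, against 247, 271 and 225 CPM in Col-0 in low light. It fell by 2.08 on the log2 scale (SE 0.19, adjusted p = 8.66e-08), and averaged 53.7 ± 16.3 CPM in Col-0 in high light. GH3.2 (AT4G37390) had 13.4, 20.6 and 20.1 CPM in hy5-2 in high light, against 61.0, 48.1 and 45.4 CPM in Col-0 in low light (log2 fold change -1.52 ± 0.17 SE, adjusted p = 1.03e-06). Both genes were separated from Col-0 in low light in all libraries, and GH3.1 and GH3.5 fell too.

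Of the AUX/IAA genes, IAA30 (AT3G62100) had 13.6, 16.9 and 18.1 CPM in hy5-2 in high light, against 43.1, 36.1 and 35.4 CPM in Col-0 in low light (log2 fold change -1.24 ± 0.13 SE, adjusted p = 4.35e-08). IAA5 had 7.73, 7.97 and 8.24 CPM in hy5-2 in high light, against 27.6, 22.1 and 20.8 CPM in Col-0 in low light (adjusted p = 1.89e-06). IAA20 had 1.69, 1.2 and 0.882 CPM in hy5-2 in high light, against 4.96, 4.50 and 4.03 CPM in Col-0 in low light (adjusted p = 6.92e-05). All 3 were lower in every mutant library, and IAA2 and IAA11 fell as well.

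Of the transporters, the efflux carriers PIN4 and PIN7 fell, by 0.47 and 0.37 (adjusted p = 0.00345 and 0.00068). The influx carrier LAX3 rose by 0.49 (adjusted p = 0.00366), at 46.0, 47.7 and 47.8 CPM in hy5-2 in high light, against 31.9, 31.9 and 37.1 CPM in Col-0 in low light. LAX2, a further influx carrier, rose by 0.28 (adjusted p = 0.0415), a call lost without hy5-2 replicate 1 or 2 (0.197 and 0.116) or Col-0 low-light replicate 1, 2 or 3 (0.053, 0.0664 and 0.219). The count of auxin genes that fell was 9 to 11 when any 1 of the 6 libraries was left out, and 5 in a test against 1.5-fold.

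The promoter of GH3.2 is shown because this gene fell and holds the G-box, the palindromic letters CACGTG, within 300 bases before the RefSeq gene start (build TAIR10.1). The window of GH3.3, which fell more, holds no G-box, and of the 12 genes of largest fall only NAC019 has one. Capitals mark the motifs, which were searched on both strands and do not overlap here. The GH3.2 window (chr4:17579318-17579617, plus strand) has the G-box 27 bases and an evening element, AAATATCT, 54 bases before the start.
GH3.2: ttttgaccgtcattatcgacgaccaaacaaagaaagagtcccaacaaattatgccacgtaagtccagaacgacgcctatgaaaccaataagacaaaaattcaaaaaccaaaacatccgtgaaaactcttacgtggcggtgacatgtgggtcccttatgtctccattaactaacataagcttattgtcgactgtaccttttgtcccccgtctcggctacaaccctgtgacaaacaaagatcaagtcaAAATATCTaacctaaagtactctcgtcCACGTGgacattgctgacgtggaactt

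Shade and PIF genes, which promote elongation in weak or far-red-rich light and are partly auxin-induced, had 4 that fell and 1 that rose of 19 measured, with a median of -0.04. Their summed level was 232 to 251 CPM in hy5-2 in high light, 260 to 295 CPM in Col-0 in high light and 311 to 340 CPM in Col-0 in low light. IAA29 had 3.11, 3.6 and 4.41 CPM in hy5-2 in high light, against 9.92, 7.75 and 8.07 CPM in Col-0 in low light (log2 fold change -1.2 ± 0.23 SE, adjusted p = 0.000515). IAA19 fell by 0.89 and HAT2, a homeodomain gene, by 0.46 (adjusted p = 0.00033 and 1.6e-05), while BEE1, a bHLH gene induced by brassinosteroids, rose by 0.96 (adjusted p = 0.00304). ATHB2 and PIL1, usual shade markers, had log2 fold changes of 0.32 and 0.89 and did not pass.

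Circadian clock genes had 5 that rose and 1 that fell of 18 measured, with a median of 0.24. Of all genes tested, 3.96% rose and 2.87% fell. LHY (AT1G01060), a MYB factor of the morning loop, had 25.2, 23.5 and 19.9 CPM in hy5-2 in high light, against 46.9, 47.6 and 52.2 CPM in Col-0 in low light. It fell by 1.09 (SE 0.16, adjusted p = 4.8e-05), and Col-0 in high light averaged 114 ± 10.5 CPM. Its partner CCA1 averaged 16 ± 1.39 CPM in hy5-2 in high light, 35.9 ± 4.35 CPM in Col-0 in high light and 18.9 ± 1.39 CPM in Col-0 in low light, and did not pass (adjusted p = 0.423 against Col-0 in low light).

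Of genes usually expressed later in the day than LHY, PRR5, FKF1 and GI rose, and TOC1, LUX, ELF3, ELF4 and PRR7 did not pass. PRR5, a pseudo-response regulator, had 23.9, 22.3 and 22.2 CPM in hy5-2 in high light, against 8.11, 10.1 and 7.26 CPM in Col-0 in low light (log2 fold change 1.4 ± 0.13 SE, adjusted p = 4.3e-09). FKF1 (AT1G68050), a blue light receptor of photoperiodic flowering, had 2.31, 2.84 and 1.57 CPM in hy5-2 in high light, against 0.605, 0.395 and 0.922 CPM in Col-0 in low light (log2 fold change 1.84 ± 0.36 SE, adjusted p = 0.000714). GI, which acts with FKF1, rose by 0.26 (adjusted p = 0.0479). The groups of PRR5 and FKF1 did not overlap.

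The MYB-like activators RVE8 and RVE4 rose by 1.06 and 0.49 (adjusted p = 3.1e-05 and 0.00304). RVE8 had 18.5, 13.5 and 14.0 CPM in hy5-2 in high light, against 6.53, 7.03 and 8.76 CPM in Col-0 in low light, and averaged 29.1 ± 1.88 CPM in Col-0 in high light. Among the clock genes, 4 or 5 rose when any 1 of the 6 libraries was left out. The same comparison after 4 days on SIM called 6 clock genes higher and 2 lower (5.51% and 2.51% of all genes tested), and after 4 days on CIM 4 higher and 2 lower (3.94% and 6.63% of all genes tested). Harvest hours are not stated in the labels, and their part in these differences was not tested.

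The windows of LHY and FKF1 are shown because they hold the motifs tied to HY5 and to the morning factors. Of other clock genes that rose, PRR5 has an evening element and no G-box in its window, and RVE8 has neither. The LHY window (chr1:37872-38171, minus strand) has a G-box 80 bases before the RefSeq start, and the FKF1 window (chr1:25508339-25508638, plus strand) has evening elements 186, 240 and 279 bases before it, the nearest as the reverse complement AGATATTT.
LHY: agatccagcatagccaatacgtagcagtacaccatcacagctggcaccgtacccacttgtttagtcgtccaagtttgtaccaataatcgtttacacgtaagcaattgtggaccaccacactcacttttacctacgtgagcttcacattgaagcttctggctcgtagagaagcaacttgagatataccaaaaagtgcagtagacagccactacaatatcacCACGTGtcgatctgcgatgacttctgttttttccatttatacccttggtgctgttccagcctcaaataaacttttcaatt
FKF1: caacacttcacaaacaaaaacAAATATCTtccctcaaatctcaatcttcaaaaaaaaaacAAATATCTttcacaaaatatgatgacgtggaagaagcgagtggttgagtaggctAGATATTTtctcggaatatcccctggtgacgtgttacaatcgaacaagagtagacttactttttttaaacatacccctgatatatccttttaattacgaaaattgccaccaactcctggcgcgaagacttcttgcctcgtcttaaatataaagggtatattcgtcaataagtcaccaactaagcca

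Over all promoters of that length, the G-box was in 12% of the windows of genes that fell, 8.53% of those that rose and 7.76% of all genes tested. Among genes that fell at least 2-fold it was in 16.8% of 143 windows, and among those that rose at least 2-fold in 8.76% of 217. The evening element was in 3.55% of windows of genes that fell, 8.65% of those that rose and 5.69% of all. At least 2-fold, it was in 4.2% of windows of genes that fell and 8.76% of those that rose. The I-box, GATAAG, was in 16.4% of windows of genes that fell, 14.3% of those that rose and 14.4% of all. For genes that changed at least 2-fold, the I-box shares were 16.8% and 15.2%. These shares describe letters in a window, and binding was not measured.

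Many vascular markers were higher in the mutant. Of 18 measured xylem genes, 8 rose and none fell, with a median log2 fold change of 0.54. Of 10 phloem genes 7 rose and none fell, with a median of 0.54. Over all genes tested the shares that rose and fell were 3.96% and 2.87%. Among the xylem genes, 14 had all mutant libraries above all those of Col-0 in low light, where 12.5% of all genes tested did. Against Col-0 in high light, 0 xylem genes rose and 6 fell (median -0.37), and 1 phloem gene rose and 1 fell (median -0.05). Of all genes tested, 10.1% rose and 13.4% fell there. In Col-0, 16 xylem genes were higher and 1 lower in high than in low light, and 6 phloem genes higher and 0 lower. Of all genes tested, 16% were higher and 11.6% lower there. In bulk tissue, more cells of a type and more RNA per cell cannot be told apart.

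The xylem regulators VND7 and MYB46, which switch on vessel formation and secondary walls, rose by 1.00 and 0.97 (adjusted p = 0.000126 and 0.0155). VND7 had 8.89, 6.99 and 9.12 CPM in hy5-2 in high light, against 4.24, 3.56 and 4.96 CPM in Col-0 in low light. Of genes that act later, in wall synthesis and cell death, TED6 had 17.2, 16.8 and 15.7 CPM in hy5-2 in high light, against 10.4, 8.54 and 9.91 CPM in Col-0 in low light (log2 fold change 0.80 ± 0.15 SE, adjusted p = 0.000618). XCP1, a xylem protease, had 102, 84.0 and 76.7 CPM in hy5-2 in high light, against 67.3, 55.2 and 52.8 CPM in Col-0 in low light (log2 fold change 0.59 ± 0.12 SE, adjusted p = 0.00226). None of these genes' groups overlapped. The wall cellulose synthases CESA4 and CESA8, the protease XCP2 and the subtilase XSP1 rose by 0.52 to 0.67. ACL5, the most abundant member, averaged 263 CPM in hy5-2 in high light and 274 CPM in Col-0 in low light and did not pass. In Col-0 in high light the xylem genes' summed level was 722 to 880 CPM, beside 625 to 723 CPM in hy5-2 in high light and 530 to 580 CPM in Col-0 in low light.

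Of the phloem genes, PP2-A1, a phloem lectin of companion cells, had 32.7, 30.7 and 30.6 CPM in hy5-2 in high light, against 18.8, 18.3 and 15.6 CPM in Col-0 in low light (log2 fold change 0.83 ± 0.12 SE, adjusted p = 2.54e-05). SEOA, a sieve element filament protein, had 147, 128 and 118 CPM in hy5-2 in high light, against 67.9, 82.4 and 96.8 CPM in Col-0 in low light (adjusted p = 0.00229). Both genes lay higher in every mutant library. SEOB, its neighbour, SUC2, the sucrose loader of companion cells, APL and NAC086, regulators of sieve element identity, and CALS7, a callose synthase, rose by 0.30 to 0.58. The early phloem genes OPS and SMXL5, the most abundant of the list, had log2 fold changes of -0.13 and -0.22 and did not pass. Both were nonetheless lower in every mutant library than in any library of Col-0 in low light, where 11.1% of all genes tested were. For 8 of the 10 phloem genes every mutant library lay above, where 12.5% of all genes tested did. In the fit with a replicate block and in that of the 6 libraries alone, 1 phloem gene was called lower. The summed level of the list overlapped, at 2050 to 2090 CPM in hy5-2 in high light and 1960 to 2096 CPM in Col-0 in low light.

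The vascular counts rest on modest changes. The xylem genes that rose numbered 4 without hy5-2 replicate 1 and 5 without Col-0 low-light replicate 2, and the phloem genes 3 without hy5-2 replicate 1 and 4 without Col-0 low-light replicate 1. None of either list passed a test against 1.5-fold.

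**Figure D3:**
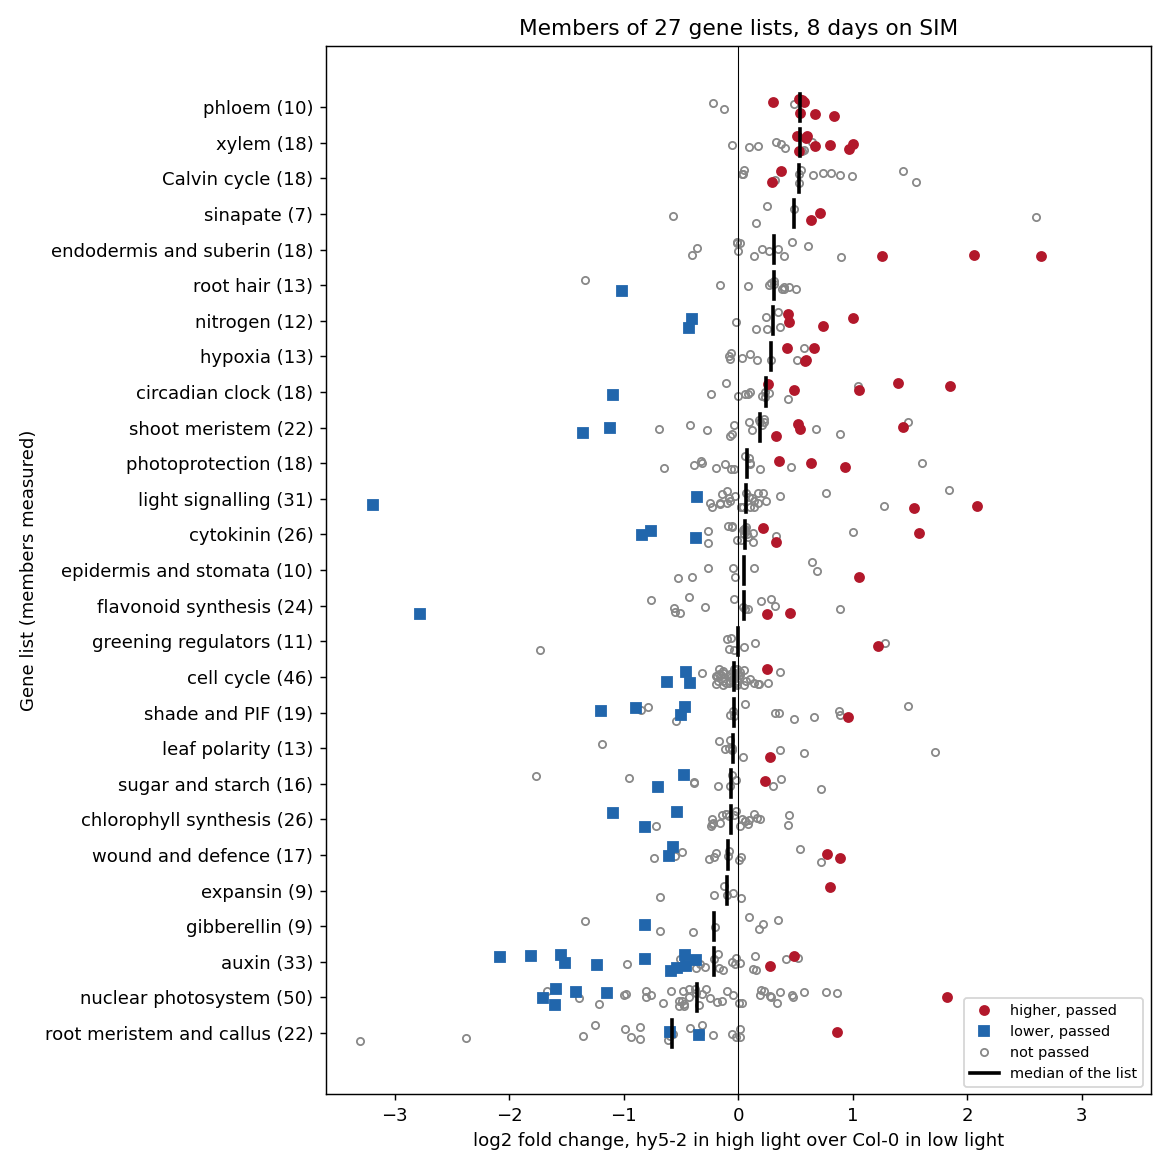
Log2 fold change, hy5-2 in high light over Col-0 in low light, of the measured members of 27 gene lists after 8 days on SIM; red circles rose, blue squares fell, open circles did not pass, and black bars are list medians. Phloem and xylem have medians of 0.54 and the root meristem and callus list -0.58; 25 members with a group at 0 counts are left off, and they move no median by more than 0.068 when set at their bounds.

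The vascular lists differed between culture stages. In the same comparison, with other libraries, 0 xylem genes rose and 6 fell after 4 days on CIM, and 0 rose and 3 fell after 4 days on SIM. Phloem genes had 0 that rose and 8 that fell after 4 days on CIM, and 1 that rose and 0 that fell after 4 days on SIM. Of all genes tested, 3.94% rose and 6.63% fell after 4 days on CIM, and 5.51% rose and 2.51% fell after 4 days on SIM. Tested directly, the difference was higher at SIM 8 days than at CIM 4 days for 10 xylem and 7 phloem genes and lower for none of either list, where 5.47% of all genes tested differed between those stages (3.79% higher and 1.68% lower). Those counts were 8 to 10 and 6 to 8 when any 1 of the 12 libraries was left out.

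Against SIM 4 days, 6 xylem genes (XCP1, XCP2, XSP1, TED6, CESA8 and LAC4) and no phloem gene were higher by this test, where 0.173% of all genes tested were. That xylem count is fragile: it was 0 without SIM 8-day hy5-2 replicate 1, without SIM 4-day hy5-2 replicate 3 or without SIM 4-day Col-0 low-light replicate 2. It was 1 without SIM 8-day Col-0 low-light replicate 3, 3 without hy5-2 or Col-0 low-light replicate 2 of SIM 8 days, and 10 without SIM 4-day Col-0 low-light replicate 3. XCP1 averaged 39.5 ± 2.42 CPM after 4 days on CIM, 175 ± 13.5 CPM after 4 days on SIM and 87.6 ± 13.2 CPM after 8 days on SIM in hy5-2 in high light. In Col-0 in low light it averaged 58.4 ± 10.9, 207 ± 30.3 and 58.4 ± 7.75 CPM at those stages.

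Auxin genes had more falls at the later stages. After 4 days on CIM 3 rose and 2 fell, after 4 days on SIM 0 rose and 6 fell, and after 8 days on SIM 2 rose and 11 fell. Over all genes tested, the shares that rose and fell were 3.94% and 6.63%, 5.51% and 2.51%, and 3.96% and 2.87% at those stages. GH3.2 averaged 197 ± 6.70, 61.0 ± 8.06 and 18.1 ± 4.02 CPM at those stages in hy5-2 in high light, and 170 ± 4.71, 76.1 ± 10.2 and 51.5 ± 8.33 CPM in Col-0 in low light. Its difference after 8 days on SIM was lower than after 4 days on CIM by 1.73 (adjusted p = 1.66e-05) and than after 4 days on SIM by 1.19 (adjusted p = 0.013). GH3.3 was the only other auxin gene to differ from SIM 4 days (adjusted p = 0.0195), and the count of 2 was 0 without SIM 8-day hy5-2 replicate 1, SIM 4-day hy5-2 replicate 3 or SIM 4-day Col-0 low-light replicate 2, and 1 without SIM 4-day Col-0 low-light replicate 1.

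**Figure D4:**
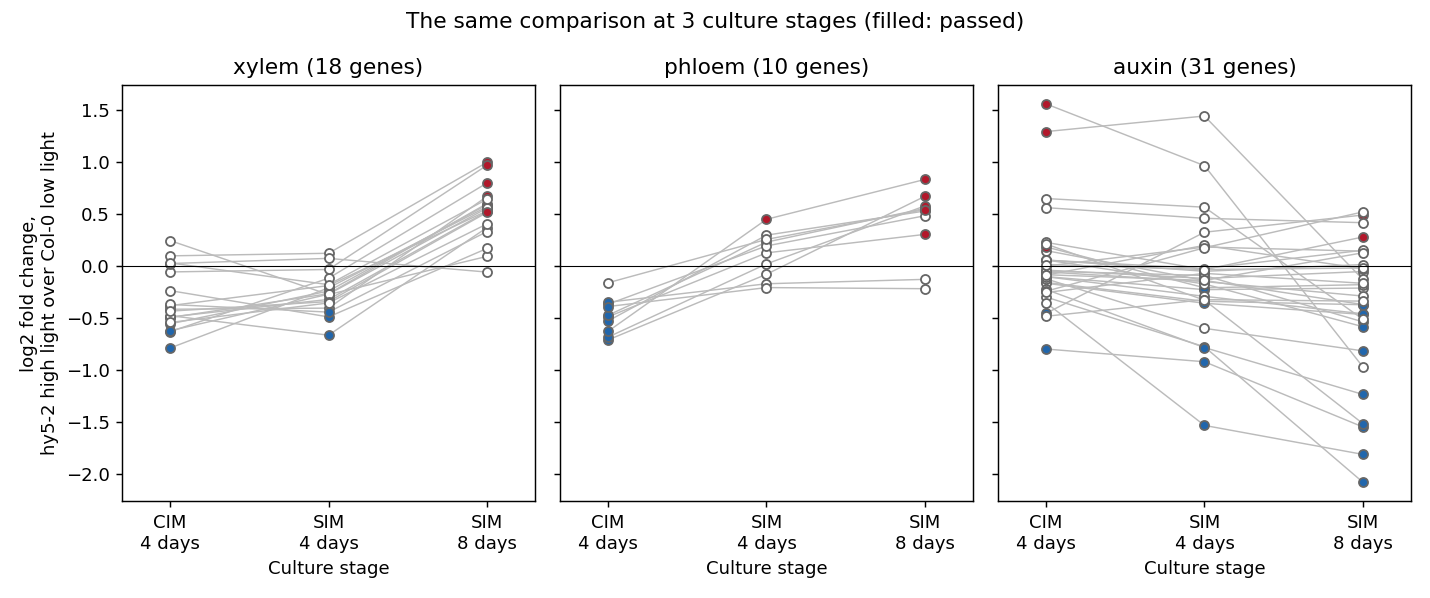
Log2 fold change of hy5-2 in high light over Col-0 in low light at 3 culture stages, for 18 xylem, 10 phloem and 31 auxin genes; each line is 1 gene and filled points passed. No xylem gene passed as higher at CIM 4 days or SIM 4 days, and 8 did at SIM 8 days.

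Shoot meristem genes differed in part. Of 22 measured, 4 rose and 2 fell, with a median of 0.19, where 3.96% and 2.87% of all genes tested did. ATH1, a homeodomain partner of STM, had 5.07, 5.46 and 3.92 CPM in hy5-2 in high light, against 1.69, 1.66 and 1.96 CPM in Col-0 in low light (log2 fold change 1.44 ± 0.31 SE, adjusted p = 0.00235). BLR, a further partner, LSH1 and the KNOX gene KNAT6 rose by 0.54, 0.52 and 0.33 (adjusted p = 0.00089, 0.012 and 0.00763), and KNAT6 lost its call without Col-0 low-light replicate 2 (0.0533).

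The meristem genes that fell were DRN, an AP2 factor of organ founder cells, and LOG4, an enzyme that activates cytokinin. DRN had 3.64, 4.04 and 4.31 CPM in hy5-2 in high light, against 8.59, 9.72 and 7.61 CPM in Col-0 in low light (log2 fold change -1.12 ± 0.22 SE, adjusted p = 0.000807), and LOG4 had a log2 fold change of -1.35 (adjusted p = 0.000964). WUS, the stem cell organiser, had 2.93, 2.62 and 4.71 CPM in hy5-2 in high light, against 1.81, 2.13 and 1.5 CPM in Col-0 in low light. Its groups did not overlap, but it missed the threshold, with a log2 fold change of 0.89 ± 0.37 (SE, adjusted p = 0.198), and Col-0 in high light averaged 5.88 ± 1.52 CPM. STM, CUC1 and LSH4, genes of meristem and organ boundary, had log2 fold changes of 0.22, -0.27 and 0.21 and overlapping groups.

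Root meristem and callus genes had a median of -0.58 over 22 measured members, with 2 that fell and 1 that rose. WRKY23, a factor induced by auxin in roots, had 642, 649 and 703 CPM in hy5-2 in high light, against 838, 847 and 841 CPM in Col-0 in low light (log2 fold change -0.34 ± 0.08 SE, adjusted p = 0.00371). WOX11, which starts callus and root founder cells, fell by 0.60 (adjusted p = 0.025), a call lost without hy5-2 replicate 1 or 2 (0.128 and 0.0729) or Col-0 low-light replicate 1, 2 or 3 (0.0789, 0.0602 and 0.0617). SCR, a ground tissue regulator, rose by 0.86 (adjusted p = 0.00622) and lost its call without Col-0 low-light replicate 2 (0.0599). WOX5, of the root organising centre, had 2 counts in hy5-2 in high light and 22 in Col-0 in low light, a ratio of 0.0879 (95% counting interval 0.01 to 0.357), and did not pass (adjusted p = 0.0595). After 4 days on CIM, 6 members of this list were higher and none lower in the same comparison (3.94% and 6.63% of all genes tested). The difference was lower after 8 days on SIM than after 4 days on CIM for 4 members and higher for none (1.68% and 3.79% of all genes tested). The count of 4 was 2 or 3 whichever of the 12 libraries was left out.

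Endodermis and suberin genes had 4 that rose and none that fell of 18, with a median of 0.31. The same comparison had 1 that rose and 4 that fell after 4 days on CIM, with a median of -0.45. It had 13 that rose and none that fell after 4 days on SIM, with a median of 0.90. Of all genes tested, 3.94% rose and 6.63% fell after 4 days on CIM, and 5.51% rose and 2.51% fell after 4 days on SIM. Tested directly, none of the 18 genes passed as higher or lower at SIM 8 days than at SIM 4 days. The median of these stage differences was -0.51, and 5 genes passed as lower with a replicate block and 1 with DESeq2. Against CIM 4 days, the difference at SIM 8 days was higher for 5, where 3.79% of all genes tested were. The count of 5 was 2 without CIM 4-day hy5-2 replicate 3, and 3 without CIM 4-day Col-0 low-light replicate 2, SIM 8-day hy5-2 replicate 2 or SIM 8-day Col-0 low-light replicate 1. MYB36, which directs the Casparian strip, had 4.53, 4.80 and 5.29 CPM in hy5-2 in high light, against 2.06, 1.82 and 2.31 CPM in Col-0 in low light (log2 fold change 1.26 ± 0.21 SE, adjusted p = 0.000113). Of its targets in the strip, CASP2 had 23 counts in hy5-2 in high light and 0 in Col-0 in low light, at least 7.59-fold higher against a floor of 3 counts over the group. CASP1 and the peroxidase PER64 rose too, at no more than 2.16 CPM in any of the 6 libraries. PER64 overlaps a neighbour with more counts, and its reads may be shared. Root hair genes had 1 that fell of 13, CPC, a repressor of hair cell fate (adjusted p = 0.00291). Of 10 epidermis and stomata genes that could be tested, 1 rose, the lipid transfer gene LTP1, and 8 further members such as SPCH and MUTE had no more than 7 counts each over the 6 libraries. LTP1 lost its call (adjusted p = 0.0234) without hy5-2 replicate 2 (0.113) or Col-0 low-light replicate 1 or 3 (0.136 and 0.0847).

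Of 26 cytokinin genes, 3 rose and 3 fell, with a median of 0.06. AHK4, a cytokinin receptor, had 255, 252 and 262 CPM in hy5-2 in high light, against 200, 205 and 206 CPM in Col-0 in low light (log2 fold change 0.33 ± 0.05 SE, adjusted p = 8.26e-05). CKX3, which degrades cytokinin, had 291, 345 and 354 CPM in hy5-2 in high light, against 639, 599 and 532 CPM in Col-0 in low light (log2 fold change -0.84 ± 0.15 SE, adjusted p = 0.000618), and its relative CKX6 fell by 0.37 (adjusted p = 0.00272). The response regulator ARR6 rose by 0.22 and ARR3 fell by 0.76 (adjusted p = 0.0136 and 0.00564), calls lost without hy5-2 replicate 3 (0.0818) for ARR6 and hy5-2 replicate 1 (0.0649) for ARR3. CKX4 rose by 1.58 (adjusted p = 0.00933), lost without hy5-2 replicate 2 (0.0572) or Col-0 low-light replicate 2 (0.0679).

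Of 46 cell cycle genes, 1 rose and 3 fell, with a median of -0.04. CYCD3;1, a G1 cyclin that responds to cytokinin, had 209, 189 and 207 CPM in hy5-2 in high light, against 169, 171 and 169 CPM in Col-0 in low light (log2 fold change 0.25 ± 0.06 SE, adjusted p = 0.00604). Of the 3 that fell, CYCB2;1, CYCB2;3 and SMR1, 0 passed without hy5-2 replicate 1. Of these genes 1 passed without hy5-2 replicate 2 or 3 or Col-0 low-light replicate 1 or 2, and 2 without Col-0 low-light replicate 3.

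Low-oxygen response genes had 4 that rose and none that fell of 13, with a median of 0.29. Of all genes tested, 3.96% rose and 2.87% fell. PDC2, a pyruvate decarboxylase, had 77.2, 66.2 and 73.5 CPM in hy5-2 in high light, against 43.1, 48.3 and 45.3 CPM in Col-0 in low light (log2 fold change 0.66 ± 0.07 SE, adjusted p = 9.22e-08). ADH1, alcohol dehydrogenase, had 231, 186 and 190 CPM in hy5-2 in high light, 59.7 ± 13.6 CPM in Col-0 in high light, and 131, 148 and 124 CPM in Col-0 in low light (adjusted p = 0.00037 against Col-0 in low light). HB1, a haemoglobin, and SUS4, a sucrose synthase, rose by 0.43 and 0.58. PDC1, the fermentation form of the decarboxylase, averaged 49.1 ± 6.77 CPM in hy5-2 in high light, 10.9 ± 2.72 CPM in Col-0 in high light and 40.2 ± 2.81 CPM in Col-0 in low light, and did not pass (adjusted p = 0.131 against Col-0 in low light). The count of 4 was 2 without hy5-2 replicate 1 or Col-0 low-light replicate 3.

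Of 12 nitrogen genes, 4 rose and 2 fell, with a median of 0.30, where 3.96% and 2.87% of all genes tested did. NIR1, nitrite reductase, had 284, 257 and 262 CPM in hy5-2 in high light, against 177, 149 and 156 CPM in Col-0 in low light (log2 fold change 0.74 ± 0.10 SE, adjusted p = 2.35e-06). GLN2, chloroplast glutamine synthetase, had 62.6, 58.7 and 51.6 CPM in hy5-2 in high light, against 26.5, 30.3 and 29.3 CPM in Col-0 in low light (log2 fold change 1.00 ± 0.13 SE, adjusted p = 4.45e-06). NIA1, a nitrate reductase, went down, with 432, 485 and 437 CPM in hy5-2 in high light, against 570, 617 and 631 CPM in Col-0 in low light (log2 fold change -0.43 ± 0.07 SE, adjusted p = 5.75e-05). The groups of these 3 genes did not overlap, and LBD37 and LBD39, repressors of nitrate genes, rose by 0.44 and 0.43. The nitrate transporter gene NRT1.1 fell by 0.41 (adjusted p = 0.0159), a call lost without hy5-2 replicate 3 (0.102) or Col-0 low-light replicate 2 or 3 (0.117 and 0.0733).

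Of 16 sugar and starch genes, 1 rose and 2 fell, with a median of -0.06. APS1, a subunit of the starch synthesis enzyme ADP-glucose pyrophosphorylase, rose by 0.23 (adjusted p = 0.0342), a call lost whichever of the 6 libraries was left out (0.0544 to 0.149). The count that fell was 4 without Col-0 low-light replicate 2. TPS11 and TPS9, class II trehalose phosphate synthase genes, fell by 0.70 and 0.48 (adjusted p = 4.99e-06 and 6.69e-05). TPS11 had 126, 123 and 125 CPM in hy5-2 in high light, against 190, 212 and 206 CPM in Col-0 in low light. The wound and defence list had 2 that rose and 2 that fell of 17, with a median of -0.09. The storage protein genes VSP1 and VSP2, whose reads may be shared, rose by 0.78 and 0.89 (adjusted p = 1.66e-05 and 1.05e-05). JAZ1 and AOS, of jasmonate signalling and synthesis, fell by 0.61 and 0.57, but Col-0 low-light replicate 1 lay within the mutant's range for both. The count of genes of this list that fell was 5 without that library, 0 without Col-0 low-light replicate 2 and 1 without Col-0 low-light replicate 3. EXPA8, which loosens cell walls, was the 1 of 9 expansin genes that rose (log2 fold change 0.80, adjusted p = 0.000229). Of 9 gibberellin genes 1 fell (GA1), and of 13 leaf polarity genes 1 rose (REV). GA1 lost its call without hy5-2 replicate 1 or 2 (adjusted p = 0.108 and 0.0991) or Col-0 low-light replicate 1 or 2 (0.146 and 0.0809), and REV without hy5-2 replicate 1 or 2 (0.212 and 0.137) or Col-0 low-light replicate 1 or 3 (0.3 and 0.0919).

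Single genes outside these lists changed with stage. ROT3, a brassinosteroid synthesis enzyme, had 22.5, 24.6 and 25.3 CPM in hy5-2 in high light, against 66.3, 52.0 and 58.0 CPM in Col-0 in low light, after 8 days on SIM (adjusted p = 6.91e-11). It averaged 21.6 ± 1.80 CPM after 4 days on CIM and 30.2 ± 1.90 CPM after 4 days on SIM in hy5-2 in high light, and 20.4 ± 1.29 and 36.9 ± 6.01 CPM in Col-0 in low light. ALMT1 averaged 89.4 ± 1.78 CPM after 4 days on CIM and 34.0 ± 2.56 CPM after 4 days on SIM in hy5-2 in high light, and 97.1 ± 3.13 and 60.3 ± 4.99 CPM in Col-0 in low light. Neither gene passed between the groups after 4 days on CIM (adjusted p = 0.69 and 0.52). PRXCB, a cell wall peroxidase, averaged 752 ± 61.2 CPM after 4 days on CIM and 3004 ± 93.7 CPM after 8 days on SIM in hy5-2 in high light, and 910 ± 92.5 and 1716 ± 104 CPM in Col-0 in low light. Over all genes, the difference between the groups was higher after 8 days on SIM than after 4 days on SIM for 36 genes and lower for 67 (0.173% and 0.321% of those tested, together 0.494%). Those counts were 3 and 15 without SIM 8-day hy5-2 replicate 1.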

How the data were processed

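RNA from hypocotyl explants was sequenced from a stranded mRNA kit, per the labels' protocols, in 33 libraries, 3 biological replicates per group per the series' design text. The authors deposited raw counts per gene, whole numbers with no normalization; build TAIR10 and the tools STAR, SAMtools, bedtools and edgeR are listed in the submitters' processing notes. Tool versions, strand setting and multi-mapping rule: not given in the sources used here. Reads of overlapping genes (among those named CHS, DGR2, bZIP70, SPA4, F3H, REF1, PSAH1, OHP1, REV, CKX6, PER64, ADH1, TPS1 and ROT3) and of near-identical copies are of uncertain origin. Over the 33 libraries the neighbour had more counts than the gene for bZIP70 (7629 against 2119), OHP1, PER64 and TPS1, and about as many for F3H and CKX6. For ROT3, CHS and DGR2 the neighbour had 5, 12 and 425 counts, against 19357, 23936 and 91742. The table held 33400 loci, 32835 matched by locus code to a RefSeq table (TAIR10.1); 77 chloroplast loci had 0 counts.

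Counts were fitted in edgeR 4.0.16 (R 4.3.3) with filterByExpr (minimum count 10, minimum total 15; 20842 genes), TMM scaling and a robust quasi-likelihood fit to all 33 libraries, with a coefficient for each group and no replicate block. The common biological coefficient of variation was 0.075. Tests were two-sided, with Benjamini-Hochberg adjustment over all genes and a threshold of 0.05; "rose" and "fell" are used of single genes and of list members only where they passed. Differences between stages are interaction contrasts in the same fit, and p-values measure the spread between the libraries deposited. Counting intervals and floors cover counting error only. The procedure was also run on counts simulated from the spread this fit estimated. That run cannot show how it performs on libraries that depart from that spread.

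The members, the 27 lists (563 genes, 529 measured; the other 34 had at most 22 counts over the 6 libraries) and the tests were chosen with earlier results of these data known. Genes named are a fixed set, the 12 of largest change per direction with a symbol, at least 5 CPM in 1 group and no overlap, up to 3 members per list and direction by adjusted p, and 5 per direction for each stage difference; other list members that passed are named as such. ACL5, OPS, SMXL5, ATHB2, PIL1 and CCA1 were named after their values were seen. Promoters are the 300 bases before the RefSeq gene start, read from the TAIR10.1 genome; 32834 of the 32835 gene intervals overlapped the same locus there. Alternatives were RLE scaling, no low-count filter, DESeq2 1.42.0, the 6 libraries alone, a replicate block, a test against 1.5-fold (glmTreat) and leaving out each library.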

Additional observations from a re-analysis of the deposited data

Results flagged for a closer look

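For 18 genes, the 5 named per direction for each stage difference with 2 genes in both, the difference between hy5-2 in high light and Col-0 in low light itself differed between culture stages by an interaction contrast in edgeR's quasi-likelihood fit; values are the log2 difference at SIM 8 days minus that at the earlier stage. Against SIM 4 days it was higher for ESK1 (1.18), a wall xylan acetylation gene, TPS1 (0.70), trehalose phosphate synthase, AZI1 (2.87), DMP2 (0.93) and ABCB9 (1.22), a transporter. It was lower for ALMT1 (-2.15), ROT3 (-1.01), GLYI4 (-1.42), NIA1 (-0.62) and CYP705A20 (-1.21). DMP2 and ABCB9 lost this call without SIM 8-day hy5-2 replicate 1 (adjusted p = 0.0525 and 0.0676).

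Against CIM 4 days it was higher for MLP34 (1.15), PAL4 (2.08), a phenylalanine ammonia-lyase, GRP9 (1.18), a glycine-rich protein gene, PRXCB (1.08) and PP2-A1 (1.46). It was lower for ALMT1 (-2.86), DGR2 (-2.03), ROT3 (-1.37), NAC084 (-1.32) and HOL1 (-1.48), a methyltransferase. PAL4 and GRP9 did not pass at SIM 8 days alone (adjusted p = 0.174 and 0.282): PAL4 averaged 19.8 ± 1.00 CPM in hy5-2 in high light and 16 ± 1.6 CPM in Col-0 in low light there, and its log2 fold change at CIM 4 days was -1.78. Medium, time in culture and time in high light differ together between stages and cannot be told apart.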

How the results depend on the processing

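RLE scaling kept 826 of the 826 genes that rose and 579 of the 598 that fell, DESeq2 kept 786 and 551, the fit without a low-count filter 759 and 520, and the 6 libraries alone 722 and 488. A test against 1.5-fold left 81 that rose and 57 that fell. Leaving out 1 library at a time gave 578 to 690 that rose and 366 to 462 that fell (366 without hy5-2 replicate 1), and 393 of the 826 and 280 of the 598 were called in all 6 fits; at least 2-fold, the ranges were 168 to 227 and 114 to 146. The replicate block gave 1201 that rose and 941 that fell; same-numbered libraries correlated at -0.061, 0.035 and 0.057 in their deviations, hy5-2 replicate 1 correlated best with Col-0 replicate 2 (0.152), and the numbers were therefore not taken to pair the samples. For the stage difference against SIM 4 days, 36 genes were higher and 67 lower; the block gave 160 and 241, DESeq2 111 and 106, and leaving out 1 library 3 to 107 and 15 to 141 (3 without SIM 8-day hy5-2 replicate 1, 107 without SIM 4-day Col-0 low-light replicate 3), with counts also moved over 1.5 times without SIM 8-day hy5-2 replicate 2 (19 and 41) or Col-0 low-light replicate 3 (13 and 28), or SIM 4-day hy5-2 replicate 3 (9 and 25), Col-0 low-light replicate 1 (28 and 38) or Col-0 low-light replicate 2 (6 and 24). Against CIM 4 days, 789 were higher and 351 lower; the block gave 1374 and 792, and leaving out 1 library 502 to 771 and 172 to 314 (502 without CIM 4-day Col-0 low-light replicate 2, 172 without SIM 8-day hy5-2 replicate 1, and 194, 221 and 197 lower without SIM 8-day Col-0 low-light replicate 1, CIM 4-day hy5-2 replicate 3 or CIM 4-day Col-0 low-light replicate 2). Of 104 named genes that passed, 28 passed under every alternative and 43 were lost under the test against 1.5-fold alone. The sign turned for LHCB2.2 (-1.67, with 3 counts in hy5-2 in high light and 10 in Col-0 in low light; -2.16 to 0.64 when 1 library was left out, 0.64 without Col-0 low-light replicate 2) and LSH4 (0.21; -0.077 to 0.43, -0.077 without hy5-2 replicate 1), neither of which passed; the cause was not tested. Of 324 list medians recomputed, 10 moved beyond the spread, and no scaling moved the median of all genes by more than 0.003. Below about 3 counts per group, as for QQS, F3H, WOX5 and GLK1, a fold change is not set by these libraries.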
